A study of Mus musculus with 24 samples.

Results

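The 10 genes examined here are imprinted genes of fetal growth, namely *H19*, *Igf2*, *Meg3*, *Dlk1*, *Plagl1*, *Cdkn1c*, *Grb10*, *Peg3*, *Mest* and *Ndn*. They were chosen by symbol from the 52178 genes of the deposited table as imprinted genes known to decline after birth, and all 10 were found and passed the filter on low counts with 21273 others. Their RNA was measured in 24 libraries from mouse cartilage explants of strain C57/BL6, with 4 libraries in each of 6 groups. Hip caps, the cartilage caps of the femoral head, came from male mice aged 4 weeks, and each sample held 2 caps. Metatarsals, the cartilage rudiments of the foot bones, came from embryos at day 15 of gestation whose sex was not known, and each sample held 6. Explants of either tissue were cultured for 24 hours, held for 1 hour in a pressure vessel at 0 MPa (control), 5 MPa (called physiological in the labels) or 50 MPa (called injurious), and cultured for another 24 hours. Libraries are named HC, H5 and H50 for hip caps and MC, M5 and M50 for metatarsals at 0, 5 and 50 MPa, followed by the replicate number, with H53 as replicate 3 at 5 MPa and H504 as replicate 4 at 50 MPa. The tissues thus differ in age, in place in the body, in sex, in culture medium and in the number of animals behind a sample, and in the comparison of hip caps with metatarsals these cannot be told apart.

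An imprinted gene is expressed mainly from the copy inherited from one parent, because a mark on the DNA, laid down in the germ line, silences the other copy. Many such genes set the size of the fetus. Genes expressed from the paternal copy, such as *Igf2*, *Dlk1*, *Mest* and *Peg3*, tend to promote growth, and genes expressed from the maternal copy, such as *H19*, *Cdkn1c* and *Grb10*, tend to restrain it. In the mouse many of them are highly expressed in the embryo and decline in several organs after birth as growth slows. In cartilage IGF2 acts on the chondrocytes of the growth plate, and the cell cycle inhibitor encoded by *Cdkn1c* is needed for chondrocytes to leave the cell cycle. The mice here were of one inbred strain and the counts carry no information on alleles, so what was measured is the total RNA of each gene and not its imprint.

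*H19*, *Igf2*, *Cdkn1c*, *Ndn* and *Peg3* lie on chromosome 7, *Meg3* and *Dlk1* share chromosome 12, and *Plagl1*, *Grb10* and *Mest* lie on chromosomes 10, 11 and 6. *H19* and *Igf2* are neighbours that share enhancers, and *Meg3* and *Dlk1* form a second such pair of a maternally expressed noncoding RNA and a paternally expressed growth gene. *H19*, *Igf2*, *Mest* and *Meg3*, whose RNAs differed between the tissues, also carry microRNAs in their transcripts. Those of *H19*, *Igf2* and *Mest* are shown, and miR-770, in an exon of *Meg3*, is not. The sequences are those of RefSeq (GRCm38.p6) and run 5′ to 3′, with the seed, bases 2 to 8, in capitals.
miR-675-5p (exon of *H19*, chr7:142577112-142577133, minus strand): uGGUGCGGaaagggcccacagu
miR-675-3p (exon of *H19*, chr7:142577078-142577099, minus strand): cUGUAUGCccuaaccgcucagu
miR-483-5p (intron of *Igf2*, chr7:142654968-142654989, minus strand): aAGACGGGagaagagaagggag
miR-483-3p (intron of *Igf2*, chr7:142654932-142654952, minus strand): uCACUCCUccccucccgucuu
miR-335-5p (intron of *Mest*, chr6:30741314-30741336, plus strand): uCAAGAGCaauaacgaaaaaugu
miR-335-3p (intron of *Mest*, chr6:30741354-30741375, plus strand): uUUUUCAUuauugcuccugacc
None of these 6 seeds is shared with another of them. Libraries of total RNA do not hold mature microRNAs, so the only trace is in the rows of the hairpins. The *Mir335* row had 181 counts over the 12 metatarsal libraries, with at least 5 in each, against 8 counts over the 10 hip cap libraries. *Mir483* had 135 counts against 2, and *Mir675* and *Mir770* had 0 counts in every library of either tissue. Reads of the unspliced host RNA can fall in such a row, and the 2 sources were not separated.

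The promoters of *Igf2*, *Dlk1* and *Mest*, protein-coding genes with far lower levels in hip caps than in metatarsals, and that of *Peg3*, whose level was close in the tissues, are shown for comparison. Each is the 250 bases before an annotated start in RefSeq (GRCm38.p6), written on the strand of the gene, with CpG dinucleotides, the sites of DNA methylation, in capitals. Where a gene has several starts, the window with the most CpG is given.
*Igf2* (chr7:142658805-142659054, minus strand): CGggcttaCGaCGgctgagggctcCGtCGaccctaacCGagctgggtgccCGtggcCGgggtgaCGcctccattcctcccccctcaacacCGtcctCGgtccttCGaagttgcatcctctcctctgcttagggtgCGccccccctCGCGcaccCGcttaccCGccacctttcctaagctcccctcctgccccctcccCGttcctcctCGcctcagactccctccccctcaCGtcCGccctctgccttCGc
*Dlk1* (chr12:109452573-109452822, plus strand): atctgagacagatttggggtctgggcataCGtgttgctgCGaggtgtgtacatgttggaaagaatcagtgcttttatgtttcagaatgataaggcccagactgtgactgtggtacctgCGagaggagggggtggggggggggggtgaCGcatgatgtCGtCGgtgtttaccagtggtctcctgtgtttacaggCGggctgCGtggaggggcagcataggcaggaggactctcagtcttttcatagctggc
*Mest* (chr6:30737800-30738049, plus strand): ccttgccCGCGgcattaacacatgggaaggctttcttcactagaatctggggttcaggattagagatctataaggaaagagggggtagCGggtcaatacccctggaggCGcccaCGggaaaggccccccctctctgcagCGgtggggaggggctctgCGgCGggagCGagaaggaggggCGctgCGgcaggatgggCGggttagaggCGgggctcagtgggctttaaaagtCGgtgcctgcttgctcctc
*Peg3* (chr7:6730420-6730669, minus strand): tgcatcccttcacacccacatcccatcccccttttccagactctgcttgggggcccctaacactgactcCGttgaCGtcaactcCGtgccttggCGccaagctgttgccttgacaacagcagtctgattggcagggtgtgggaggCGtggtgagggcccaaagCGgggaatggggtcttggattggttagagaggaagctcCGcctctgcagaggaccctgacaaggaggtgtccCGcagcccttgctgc
The *Igf2* window holds 22 CpG, that of *Mest* 14, and those of *Dlk1* and *Peg3* 8 each, beside a median of 6 over 32851 windows of the same length. The hexamer TGCCGC, searched on both strands and known as the core of the site bound by ZFP57, a protein that maintains imprints, occurs in 4 of 15 windows of 8 members, which belong to *Meg3*, *Plagl1* and *Mest* (overlapping windows), and in 8.7% of all windows. TATAAA, also searched on both strands, occurs in 1 of the 15, a window of *Meg3*, and in 12.4% of all windows. DNA methylation and factor binding were not measured here.

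Library totals ranged from 4185557 to 25104484 counts. The libraries HC4 (hip cap, 0 MPa) and H502 (hip cap, 50 MPa) stood apart and were left out by the authors, and they are left out below unless named, which leaves 3 hip cap libraries at 0 MPa, 4 at 5 MPa and 3 at 50 MPa. Hip cap controls and those at 50 MPa were sequenced in the first run and those at 5 MPa in the second, so pressure and run cannot be told apart within hip caps at 5 MPa other than through the metatarsals. Library type differed too. Hip caps H501, H503 and H504 at 50 MPa were unstranded, as was control HC3, whereas controls HC1 and HC2 were stranded. Of the metatarsals at 50 MPa, M501, M502 and M503 were stranded and of the second run, and M504 was unstranded and of the first. The fits take run and library type as terms, whereas CPM levels are not adjusted for either. All 8 libraries at 5 MPa were labelled stranded and assigned to 1 run, so on these assignments this tissue comparison does not mix run or library type. The runs were read from the study's clustering plot and do not match the division by kit in the methods. The labels of library type also disagree in places with the methods. A single unnamed gene took 14.4 to 40.6% of the counts in hip caps and 8.62 to 26.6% in metatarsals, and levels are therefore given as CPM, counts relative to the library total, scaled by TMM, a method that evens out such differences in composition. The 10 genes together made up 0.0855 to 0.252% of all counts in hip caps (median 0.161%, n = 10) and 1.72 to 2.97% in metatarsals (median 2.05%, n = 12).

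The make-up of the explants differed as well. The summed level of 11 chondrocyte markers was 22400 to 77920 CPM in hip caps and 1723 to 4524 CPM in metatarsals, and all 11 were higher in hip caps at 0 MPa. Of 10 skeletal muscle markers all were lower in hip caps at 0 MPa, with sums of 7.88 to 43.5 CPM against 446 to 2551 CPM, and *Myog* and *Tnnc2* were at 0 in every hip cap control used. Of 10 markers of perichondrium and fibroblasts 9 were lower, with sums of 1304 to 9450 CPM against 6251 to 9802 CPM. Osteoclast marker sums were 325.8 to 1713 CPM in hip caps and 35.8 to 77.1 CPM in metatarsals. The sums were 54.1 to 274.5 against 80.2 to 128.5 CPM for endothelial, 24.2 to 193.6 against 39.1 to 59.9 CPM for macrophage, and 1.55 to 35.1 against 5.83 to 10.5 CPM for nerve and Schwann cell markers. In RNA from whole explants fewer cells of a type and less RNA per cell cannot be told apart.

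The first comparison was between the tissues at each pressure. At 0 MPa 7 of the 10 genes were lower in hip caps than in metatarsals at an adjusted p-value of at most 0.05, and none was higher, beside 15.9% of all 21283 genes tested that were lower and 14.1% that were higher. At 5 MPa 8 were lower (background 19.1%) and none higher (18.8%), and at 50 MPa 7 were lower (9.58%) and none higher (10.1%). The libraries of the tissues did not overlap, with hip caps lower, for 7, 8 and 8 of the 10 at 0, 5 and 50 MPa, beside 22.8, 21.5 and 21.4% of all genes. The median log2 fold change of the 10 genes, hip caps over metatarsals, was -2.98, -3.27 and -3.16 at 0, 5 and 50 MPa, beside medians of -0.08, -0.08 and -0.01 over all genes. *Dlk1*, *Igf2*, *Mest*, *Cdkn1c* and *H19* were lowest, *Meg3* and *Plagl1* were lower by less, and *Grb10*, *Peg3* and *Ndn* differed least.

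**Figure D1:**
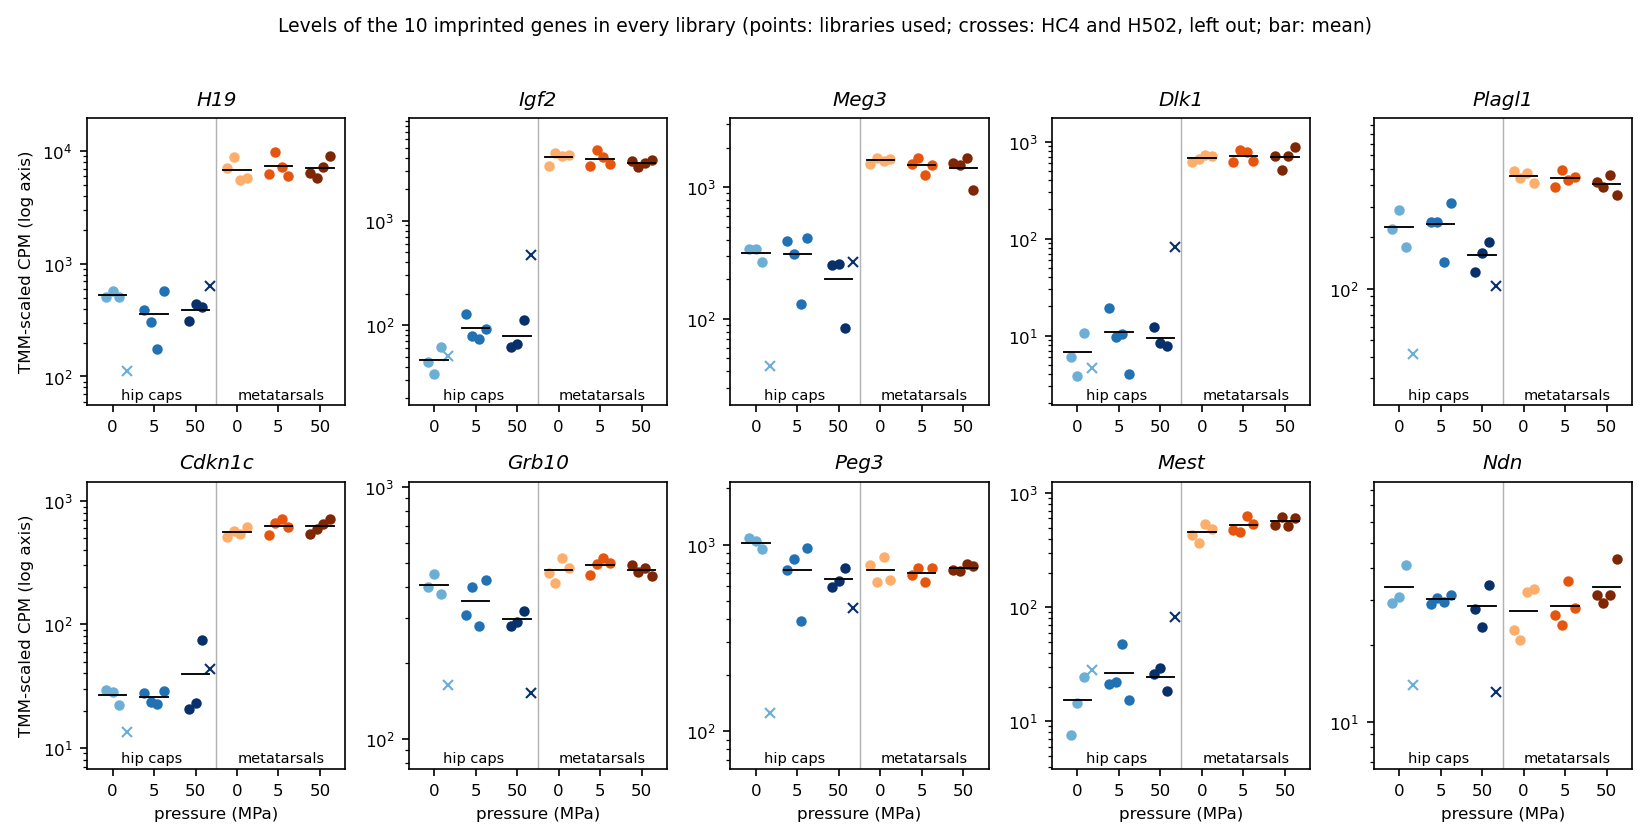
TMM-scaled CPM (log axis) of each of the 10 genes in every library, by tissue and pressure in MPa, where points are the libraries used, crosses are HC4 and H502 and bars are group means. For *Igf2* the hip caps used lie between 34.4 and 129 CPM and the metatarsals between 3286 and 4780.0 CPM, whereas for *Peg3* and *Ndn* the ranges of the tissues overlap.

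*Igf2* encodes insulin-like growth factor 2, the main growth factor of the fetus. Its level in the hip cap controls was 44.8, 34.4 and 62.0 CPM (HC1, HC2 and HC3), against 3365, 4451, 4163 and 4212 CPM in the metatarsal controls. At 5 MPa it was 129, 79.7, 74.3 and 91.3 CPM in hip caps and 3339.8, 4780.0, 4048 and 3465 CPM in metatarsals. At 50 MPa it was 61.9, 66.3 and 111 CPM against 3719, 3286, 3582 and 3762 CPM. The lowest metatarsal library was thus far above the highest hip cap at every pressure. *Igf2* was 80.7-fold lower in hip caps at 0 MPa (log2 fold change -6.33, SE 0.31, adjusted p = 6.2e-11), 41.8-fold at 5 MPa (-5.38, SE 0.24, adjusted p = 1.1e-12) and 49.0-fold at 50 MPa (-5.61, SE 0.30, adjusted p = 1.2e-10, or -4.34 with HC4 and H502 kept). An annotated gene on the same strand, *Gm49394*, overlaps its exons and had 198 counts in HC2, where *Igf2* had 216, so reads may have been divided between them in that library; only 3 of the 10 hip caps held any of its counts. The antisense RNA *Igf2os*, whose reads cannot be told from those of *Igf2* in unstranded libraries, had 46 counts in hip caps and 2395 in metatarsals.

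*Dlk1* encodes a membrane protein related to the ligands of Notch receptors, which holds progenitor cells undifferentiated. Per kilobase it was the lowest of the 10 in hip cap controls, and its levels were 5.98, 3.82 and 10.7 CPM at 0 MPa (22, 24 and 112 counts), 19.3, 9.77, 10.4 and 4.05 CPM at 5 MPa, and 12.3, 8.39 and 7.74 CPM at 50 MPa. In metatarsals it was at 622, 666, 727 and 718 CPM at 0 MPa, 623, 817, 782 and 637 CPM at 5 MPa, and 719, 509, 712 and 877 CPM at 50 MPa. No hip cap used came near the metatarsal range. The gene was 112-fold lower in hip caps at 0 MPa (log2 fold change -6.81, SE 0.46, adjusted p = 3.7e-09), 65.7-fold at 5 MPa (-6.04, SE 0.36) and 99.4-fold at 50 MPa (-6.64, SE 0.47, or -5.06 with HC4 and H502 kept), and in the order of all 21283 genes tested it ranked as the 119th, 99th and 62nd lowest. Its non-imprinted relative *Dlk2* stood at 1.42 CPM in hip caps and 0.447 CPM in metatarsals at 0 MPa, a difference that did not pass (adjusted p = 0.22), and was higher in hip caps at 5 MPa (log2 fold change 1.56, SE 0.45, adjusted p = 0.0097).

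*Mest* encodes an enzyme of the hydrolase family that is made in the embryonic mesoderm. Its level was 7.61, 14.5 and 24.4 CPM in the hip cap controls and 429, 368, 537 and 488 CPM in the metatarsal controls. At 5 MPa it was 21.3, 22.1, 47.9 and 15.4 CPM against 479, 458, 628 and 532 CPM, and at 50 MPa 26.2, 29.1 and 18.6 CPM against 528, 615, 519 and 610.4 CPM. It was 30.6-fold, 19.7-fold and 28.5-fold lower in hip caps at 0, 5 and 50 MPa (log2 fold changes -4.94, -4.30 and -4.83, SE 0.40, 0.31 and 0.41), with the last at -3.87 when HC4 and H502 were kept. *Copg2* overlaps one of its exons on the other strand and was not lower in hip caps (log2 fold change 0.30 at 0 MPa, adjusted p = 0.28, and 0.53 at 5 MPa, adjusted p = 0.0035).

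The other 3 paternally expressed genes differed less. *Plagl1*, a zinc finger factor that regulates other imprinted genes, was at 223, 287 and 175 CPM in hip cap controls and 484, 441, 473 and 414 CPM in metatarsal controls, a 1.97-fold lower level (log2 fold change -0.98, SE 0.25, adjusted p = 0.0053) without overlap. It was also lower at 5 MPa (-0.89, SE 0.18, adjusted p = 0.00057) and at 50 MPa (-1.12, SE 0.26, adjusted p = 0.0036). *Peg3*, a large zinc finger protein, was at 1083, 1045 and 946 CPM in hip cap controls and 779, 629.8, 860.2 and 648 CPM in metatarsal controls. Its hip cap controls all lay above the metatarsals, as did those of 19.6% of all genes, but the fitted difference did not pass (log2 fold change 0.42, 95% interval -0.15 to 0.99, adjusted p = 0.27), and at 5 and 50 MPa the groups overlapped (0.05 and -0.21). *Ndn*, which encodes necdin, a protein of non-dividing cells, was at 29.1, 30.7 and 40.9 CPM against 23.0, 21.0, 32.1 and 32.9 CPM at 0 MPa, with overlap, and none of its 3 differences passed (0.24, 0.08 and -0.54, adjusted p = 0.44, 0.69 and 0.089). When levels were scaled by library totals and not by TMM, which moves the median of all genes to -0.97, -0.70 and -0.90 at 0, 5 and 50 MPa, *Peg3* and *Ndn* turn to lower in hip caps at 0 and 5 MPa, and with HC4 and H502 kept they do so at 0 MPa (-0.52 and -0.22). *Ndn* at 50 MPa passed in 3 of 12 other fits (-1.52 with library totals, -0.65 with a stricter filter on counts and -0.60 with library type as the only batch term) and without H504 (-0.68), and *Peg3* at 50 MPa passed with library totals (-1.18, adjusted p = 0.026).

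Among the maternally expressed genes *H19*, a noncoding RNA that is one of the most abundant of the embryo, had the highest level per kilobase of the 10 in both sets of controls. It was at 505, 574 and 511 CPM in hip cap controls and 7077, 8878, 5552 and 5813 CPM in metatarsal controls. At 5 MPa it was at 386, 305, 177 and 575 CPM against 6249, 9802, 7248 and 6066 CPM, and at 50 MPa at 313, 437 and 417 CPM against 6327, 5720.3, 7159 and 9048 CPM. All hip caps lay below all metatarsals. *H19* was 14.9-fold lower in hip caps at 0 MPa (log2 fold change -3.90, SE 0.38, adjusted p = 1.5e-07), 20.4-fold at 5 MPa (-4.35, SE 0.31) and 21.5-fold at 50 MPa (-4.42, SE 0.39).

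*Cdkn1c* encodes p57, an inhibitor of cyclin-dependent kinases. It was at 29.4, 28.5 and 22 CPM in hip cap controls and 511, 566, 544 and 616 CPM in metatarsal controls. Hip caps were at 27.9, 23.4, 22.6 and 28.9 CPM at 5 MPa and at 20.7, 23.2 and 75.2 CPM at 50 MPa, where H504 held the highest value, against 531 to 714 CPM and 542 to 713 CPM in metatarsals. The gene was 21.9-fold, 24.5-fold and 16.2-fold lower at 0, 5 and 50 MPa (log2 fold changes -4.45, -4.62 and -4.02, SE 0.40, 0.32 and 0.39). The related inhibitors *Cdkn1a* (log2 fold change -0.10, adjusted p = 0.76) and *Cdkn1b* (0.02, adjusted p = 0.96), which are not imprinted, did not pass at 0 MPa. An antisense gene, *Gm44732*, overlaps *Cdkn1c*, and its highest count in metatarsals, 110, was in the unstranded library M504.

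*Meg3*, the noncoding RNA beside *Dlk1*, was at 341, 339 and 269 CPM in hip cap controls and 1506, 1676, 1573 and 1646 CPM in metatarsal controls. At 5 MPa it was at 392, 309, 129 and 414 CPM against 1491, 1669.7, 1231 and 1473 CPM, and at 50 MPa at 255, 262 and 84.5 CPM against 1526, 1472, 1661 and 955 CPM. It was 4.17-fold, 4.71-fold and 4.96-fold lower in hip caps (log2 fold changes -2.06, -2.24 and -2.31, SE 0.41, 0.31 and 0.43, adjusted p = 0.00070, 9.6e-06 and 0.00053). *Grb10*, which encodes an adaptor that dampens signals of the insulin and IGF receptors, was at 399, 451 and 376 CPM against 456, 415, 521 and 476 CPM at 0 MPa, with overlap and no call (log2 fold change -0.14, 95% interval -0.54 to 0.25, adjusted p = 0.61). At 5 MPa it was 1.39-fold lower in hip caps without overlap (-0.47, SE 0.14, adjusted p = 0.0089), and at 50 MPa the groups did not overlap either but the test did not pass (-0.54, SE 0.20, adjusted p = 0.059). Its non-imprinted relative *Grb14* went the other way, at 61.9 CPM in hip caps and 2.27 CPM in metatarsals (log2 fold change 4.59, SE 0.27, adjusted p = 2.3e-10).

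**Figure D2:**
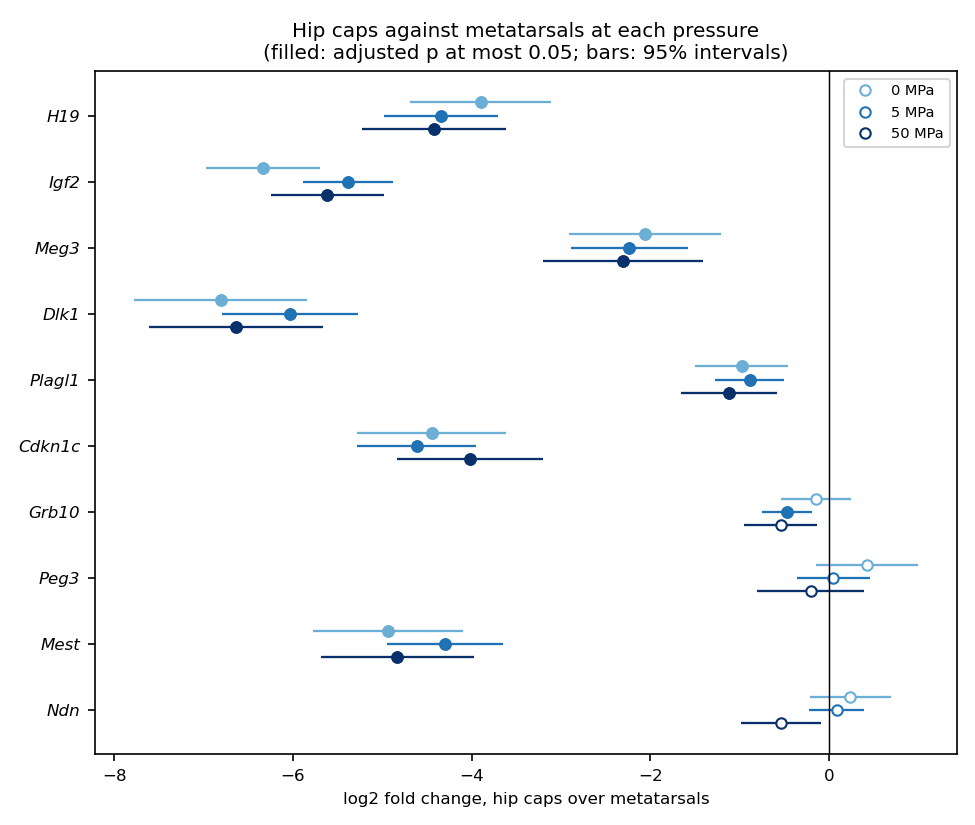
Log2 fold change of each of the 10 genes, hip caps over metatarsals, at 0, 5 and 50 MPa, with 95% intervals from the fit. Filled points passed an adjusted p-value of 0.05, and those of *Dlk1*, *Igf2*, *Mest*, *Cdkn1c* and *H19* lie between -6.81 and -3.90, while *Grb10* passed at 5 MPa and *Peg3* and *Ndn* at no pressure.

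The calls of *Igf2*, *Dlk1*, *Mest*, *Cdkn1c* and *H19* held in every alternative fit and with any library left out. Those of *Meg3* and *Plagl1* at 0 MPa were lost without MC1, the one metatarsal control of the first run (log2 fold changes -1.90 and -1.07, adjusted p = 0.11 and 0.12), that of *Plagl1* at 0 MPa also in the first run alone (-1.08, adjusted p = 0.19), and those at 50 MPa without M504, the one metatarsal of the first run at that pressure (-2.54 and -1.07, adjusted p = 0.083 and 0.23). The call of *Grb10* at 5 MPa was lost without H51, H53 or M54 (-0.34, -0.30 and -0.39) and with all 24 libraries (-0.47, adjusted p = 0.19), at 50 MPa it passed in 6 of 12 other fits and with 8 of 22 libraries left out in turn, and at 0 MPa it passed with library totals in place of TMM (-1.07, adjusted p = 0.011). Within the 8 libraries at 5 MPa alone, with no batch terms, the same 8 genes passed.

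Because each library holds all 10 genes, their ratios can be read without any scaling between libraries. The ratio of *H19* to *Igf2* counts was 11.3, 16.7 and 8.23 in hip cap controls and 2.10, 1.99, 1.33 and 1.38 in metatarsal controls. It was 2.38 to 6.30 in hip caps at 5 MPa and 3.75 to 6.58 at 50 MPa, both below the 8.23 to 16.7 of the controls used without overlap, and 1.33 to 2.41 in the 12 metatarsals, so that the tissues met at their edges through H53. The left-out control HC4 was at 2.18, below every hip cap used at 5 or 50 MPa, and the left-out H502 (50 MPa) at 1.36. Both lay within the metatarsal range, so the separation of controls from pressed hip caps depends on leaving HC4 out. The highest ratio, 16.7, was that of HC2, where *Igf2* had 216 counts and *Gm49394* 198, so reads may have been divided between them. Count ratios are not adjusted for run or library type, which also differed between these groups. The ratio of *Meg3* to *Dlk1* counts was 10.9 to 102 in the hip caps used (median 28.2) and 1.09 to 2.89 in metatarsals (median 2.30), without overlap. HC4 was at 9.40 and H502 at 3.29, between these ranges. In both clusters the noncoding RNA was thus mostly the larger relative to the growth gene in the hip caps used. *Rian* and *Mirg*, noncoding RNAs of the *Dlk1* and *Meg3* cluster that are expressed from the same copy as *Meg3*, had ratios to *Meg3* that overlapped between the tissues, with 0.398 to 0.934 *Rian* counts per *Meg3* count in hip caps and 0.561 to 0.879 in metatarsals, and 0.0597 to 0.191 against 0.0600 to 0.0963 for *Mirg*. H504 held the highest value of the hip caps used in both. The left-out HC4 and H502 were at 0.985 and 1.05 for *Rian* and at 0.207 and 0.104 for *Mirg*. These ratios are descriptions, and no test was made of them.

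**Figure D3:**
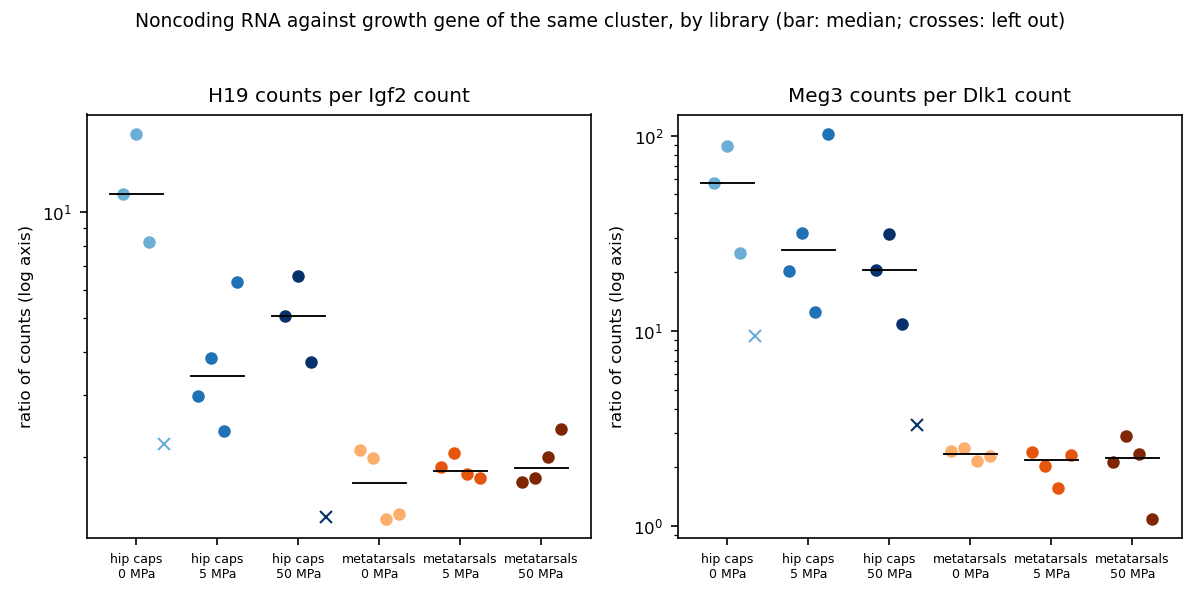
Ratio of *H19* to *Igf2* counts and of *Meg3* to *Dlk1* counts in every library (log axis), by group, with the group median as a bar and crosses for HC4 and H502. Hip caps reach 16.7 (HC2, where reads may have been divided between *Igf2* and *Gm49394*) and 102, and metatarsals stay at or below 2.41 and 2.89.

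The order of the genes also differed between the tissues, on levels per kilobase of annotated exon. In metatarsal controls it ran from *H19* (2777 ± 618 CPM per kilobase, SD, n = 4) over *Igf2* (707 ± 82.5) and *Cdkn1c* (274 ± 21.7) to *Dlk1* (121 ± 8.64) and *Mest* (115 ± 18.5), which did not differ beyond their spread, then *Meg3* (88.5 ± 4.23), *Plagl1*, *Peg3* and *Grb10* (51.4 to 57.9, within their spread), and *Ndn* (7.37 ± 1.66). In hip cap controls *H19* was also first (215 ± 15.6, n = 3), but *Peg3* (76.9 ± 5.28), *Grb10* (45.0 ± 4.26) and *Plagl1* (29.2 ± 7.17) followed, and *Ndn* (9.08 ± 1.73), *Igf2* (8.23 ± 2.44), *Mest* (3.93 ± 2.14) and *Dlk1* (1.21 ± 0.62) stood last, with neighbours within their spread. *Igf2* held place 2 in metatarsals at every pressure. It held place 8 in hip cap controls and place 6 in hip caps at 5 and at 50 MPa, each time with neighbours within their spread. Exon lengths were those of all annotated transcripts joined, so the order would shift where a tissue uses short transcripts.

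Libraries that differed in make-up were read beside these levels. H53, a hip cap at 5 MPa, had a perichondrium and fibroblast marker sum of 9450 CPM, within the metatarsal range, and its *Igf2* was at 74.3 CPM, *Dlk1* at 10.4 CPM and *Cdkn1c* at 22.6 CPM, within the range of the other hip caps. The same library held the lowest *H19* (177 CPM), *Peg3* (387 CPM) and *Grb10* (280.1 CPM) and the highest *Mest* (47.9 CPM) of the hip caps used. M504 had the lowest muscle marker sum of the metatarsals, 446 CPM, and the highest perichondrium and fibroblast sum, 9802 CPM. Its *Igf2* was at 3762 CPM and its *Dlk1* at 877 CPM, the highest *Dlk1* of all. Among hip caps H502, left out of the fit, had the highest muscle sum (114.4 CPM) with *Igf2* at 468 CPM and *Dlk1* at 82.5 CPM. Beyond these values the part of muscle, fibroblast and chondrocyte content in the tissue difference was not tested. The 10 proliferation markers summed to 98.1 to 510.4 CPM in hip caps and 97.4 to 191 CPM in metatarsals. None passed at 0 or 50 MPa, and 6 were higher in hip caps at 5 MPa, beside 18.8% of all genes.

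**Figure D4:**
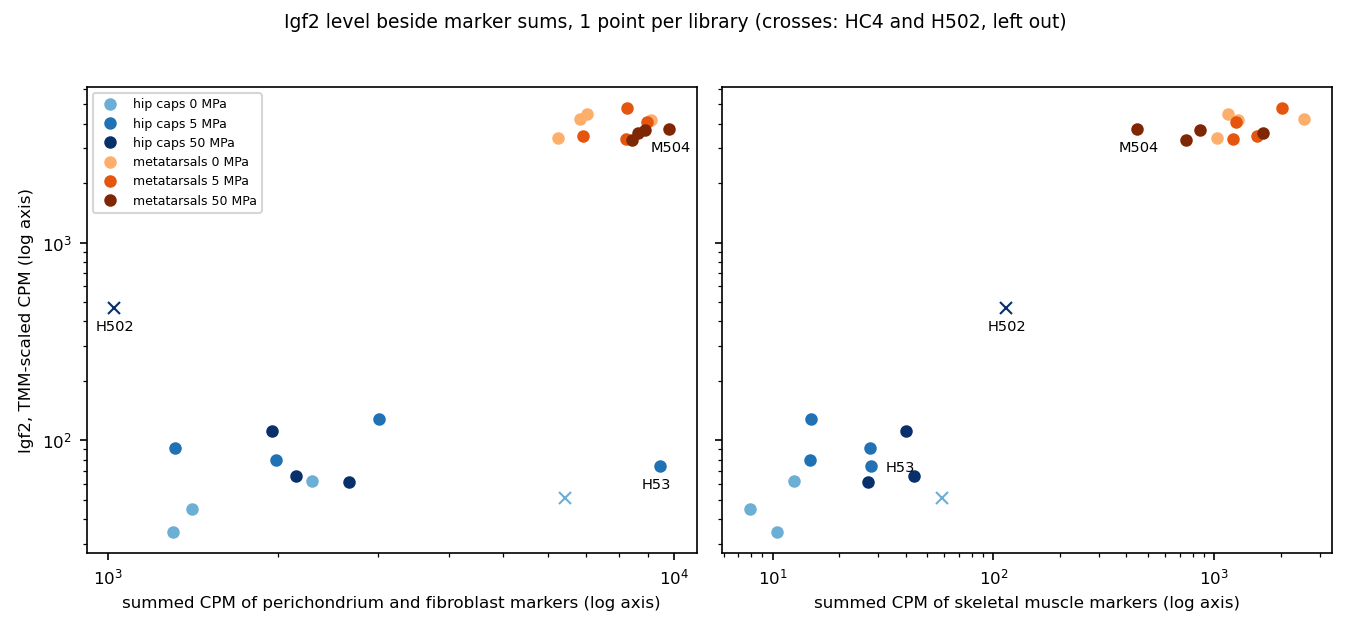
Level of *Igf2* (TMM-scaled CPM) against the summed CPM of 10 perichondrium and fibroblast markers and of 10 skeletal muscle markers, with 1 point per library and log axes, and crosses for HC4 and H502. H53 lies at 9450 CPM of fibroblast markers among the metatarsals on that axis, with *Igf2* at 74.3 CPM.

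Other imprinted genes were counted next. Of 40 listed, 38 were tested, and 13 were lower and 5 higher in hip caps at 0 MPa (median log2 fold change -0.70), 22 and 8 at 5 MPa (-0.71), and 11 and 4 at 50 MPa (-0.55). Over all genes 15.9, 19.1 and 9.58% were lower and 14.1, 18.8 and 10.1% higher at these pressures, so the share that was higher was near that of all genes. At 5 MPa the largest lower levels with at least 1 CPM were those of *Klf14* (0.0766 against 5.85 CPM, log2 fold change -5.99, SE 0.50), *Phlda2*, which restrains growth of the placenta (0.0529 against 1.07 CPM, -4.08, SE 0.75), *Rtl1*, a gene of the *Dlk1* and *Meg3* cluster (0.364 against 4.43 CPM, -3.56, SE 0.38; its unadjusted control means at 0 MPa, 10.1 against 4.51 CPM, went the other way), and *Nnat* (-3.10, SE 0.38). The largest higher levels were those of *Osbpl5* (142 against 32.9 CPM, 2.11, SE 0.19), the amino acid transporter *Slc38a4* (105 against 31.6 CPM, 1.73, SE 0.26), *Snrpn* (1.27, SE 0.28) and *Asb4* (1.13, SE 0.32). *Osbpl5*, which lies in the same imprinted domain as *Cdkn1c*, was thus higher in hip caps where *Cdkn1c* was lower. Both *Rian* and *Mirg* were lower (-2.59, SE 0.26, and -2.28, SE 0.21), as was *Igf2r*, the receptor that clears IGF2 (281 against 448 CPM, -0.67, SE 0.14, adjusted p = 0.00058), although not at 0 MPa (-0.28, adjusted p = 0.30).

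Regulators of fetal growth that are not imprinted were next. The shares of all genes to set beside the counts at 0, 5 and 50 MPa are 15.9, 19.1 and 9.58% lower and 14.1, 18.8 and 10.1% higher. Of 13 listed, 12 were tested, and 9 were lower and none higher in hip caps at 0 MPa, 8 at 5 MPa and 7 at 50 MPa. At 5 MPa the lowest were *Sox11*, a transcription factor of embryonic progenitors (2.32 against 53 CPM, log2 fold change -4.51, SE 0.22), and *Igf2bp1* and *Igf2bp3*, which encode proteins that bind *Igf2* RNA (-4.29, SE 0.22, and -3.21, SE 0.20). *Igf2bp2* was lower by less (-1.75, SE 0.13). Among 11 non-imprinted relatives, 10 of them tested, 3 were lower and 2 higher at 0 MPa. *Igf1*, the postnatal counterpart of *Igf2*, was itself lower in hip caps (3.37 against 91.7 CPM at 0 MPa, -4.91, SE 0.52, adjusted p = 1.9e-06), and *Plag1*, a relative of *Plagl1* that activates *Igf2*, was lower too (10.1 against 66.3 CPM, -2.67, SE 0.27). Of 13 signalling partners 4 were higher and 4 lower at 0 MPa. The receptors *Igf1r* (246 against 269 CPM, -0.10, adjusted p = 0.77) and *Insr* (85.1 against 92.9 CPM, -0.07, adjusted p = 0.78) did not pass, and *Irs1*, which carries their signal, was higher in hip caps (412 against 101 CPM, 2.09, SE 0.21, adjusted p = 2.5e-07).

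The second question was whether pressure changed these genes within a tissue. In metatarsals none of the 10 genes passed at 5 or at 50 MPa, as none of all 21283 genes did (background 0% for each, with 689 and 828 genes, 3.24 and 3.89%, at an unadjusted p-value under 0.05 and none of them a member, and no member called by DESeq2). The log2 fold changes of the 10 genes, pressure over control, ran from -0.17 to 0.19 at 5 MPa and from -0.31 (*Igf2*, 95% interval -0.75 to 0.13) to 0.17 (*Cdkn1c*, -0.43 to 0.78) at 50 MPa. For *H19* the interval ran from -0.42 to 0.75 at 5 MPa and from -0.58 to 0.59 at 50 MPa, and the narrowest, that of *Grb10*, from -0.23 to 0.37 and from -0.27 to 0.33. Changes of these sizes would not have been detectable at this depth and number of libraries, while differences as large as those between the tissues for *Igf2*, *Dlk1*, *Mest*, *Cdkn1c* and *H19* lie outside every interval.

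In hip caps none of the 10 passed with edgeR at 5 MPa, where 0.0188% of all genes did, and none at 50 MPa, where 5.18% did. No member passed in the DESeq2 fit made here either. These shares are of the edgeR fit, and the authors, with DESeq2, reported more genes at both pressures and far more at 5 MPa. At an unadjusted p-value under 0.05 there was 1 member at each pressure, beside 14.8 and 22.6% of all genes. *Igf2* moved most at 5 MPa, from 34.4 to 62.0 CPM in controls to 74.3 to 129 CPM, without overlap of the groups, as seen in the higher direction for 8.4% of all genes. Its log2 fold change of 0.80 (95% interval 0.14 to 1.47, unadjusted p = 0.020) did not pass (adjusted p = 0.25), and it did pass in the fits with no batch terms (0.99, adjusted p = 0.016) and with library type as the only one (1.14, adjusted p = 0.013), in which the difference of run between these groups is not taken up. *Dlk1* (0.76, interval -0.25 to 1.76) and *Mest* (0.75, interval -0.16 to 1.66) had similar values with overlapping groups. Over the same groups the perichondrium and fibroblast marker sum was 1304 to 2295 CPM in controls and 1312 to 9450 CPM at 5 MPa, and the muscle sum 7.88 to 12.5 CPM and 14.8 to 27.8 CPM. The macrophage sum was 24.2 to 40.9 and 45.5 to 193.6 CPM, the osteoclast sum 325.8 to 526 and 541 to 1690.0 CPM and the chondrocyte sum 47390 to 77920 and 22400 to 52980 CPM. None of the markers passed by itself, and their part in these values was not tested.

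At 50 MPa *H19* (313 to 437 CPM against 505 to 574 CPM in controls), *Meg3* (84.5 to 262 CPM against 269 to 341 CPM), *Grb10* (281 to 320.3 CPM against 376 to 451 CPM) and *Peg3* (589.9 to 747 CPM against 946 to 1083 CPM) lay below all controls used, which was the case for 7.56% of all genes. These hip caps at 50 MPa were all unstranded, unlike controls HC1 and HC2, and the CPM are not adjusted for library type. The left-out control HC4 was lower still for all 4 genes (111, 44.0, 163 and 125 CPM), so this separation depends on leaving HC4 out. The left-out H502 (50 MPa) was not below all controls used for *H19* (635 CPM) and *Meg3* (271 CPM). It was below them for *Grb10* (151 CPM) and *Peg3* (458 CPM). With all 24 libraries *H19* and *Meg3* turned to 0.10 and 0.22, whereas *Grb10* and *Peg3* stayed negative. None of the 4 genes passed (log2 fold changes -0.52, -0.36, -0.37 and -0.55, adjusted p = 0.47, 0.67, 0.29 and 0.26), although *Peg3* did when H53 was left out of the fit (-0.59, adjusted p = 0.047). The chondrocyte marker sum moved alongside, at 32640 to 37310 CPM against 47390 to 77920 CPM in controls, with 2 of 11 markers lower. The sums for skeletal muscle (27.0 to 43.5 against 7.88 to 12.5 CPM, 1 of 10 markers higher), macrophages (76.7 to 93.1 against 24.2 to 40.9 CPM) and osteoclasts (543 to 1713 against 325.8 to 526 CPM) also lay apart, with no single marker of the latter pair passing, and the part of these cell types in the values was not tested. *Ndn* had the smallest p of the 10 (27.5, 23.4 and 34.4 CPM against 29.1, 30.7 and 40.9 CPM, log2 fold change -0.63, 95% interval -1.09 to -0.16, unadjusted p = 0.010, adjusted p = 0.098), and it passed without H504 (-0.77, adjusted p = 0.040). *Cdkn1c* had its value of 75.2 CPM in H504 alone, and its log2 fold change of 0.61 (interval -0.31 to 1.52) turned to -0.22 without that library and to -0.01 without HC3. Of the related genes *Igf1* rose from 3.37 to 9.78 CPM (2.75, SE 0.63, adjusted p = 0.023) and *Plag1* from 10.1 to 14.9 CPM (1.07, SE 0.30, adjusted p = 0.044), whereas *Maged2* fell from 156.5 to 83.3 CPM (-1.27, SE 0.21, adjusted p = 0.0093), and of the other imprinted genes *Osbpl5* (-0.98, SE 0.27, adjusted p = 0.039) and *Trappc9* (-0.70, SE 0.19, adjusted p = 0.037) fell. The fitted changes of *Igf1*, *Plag1* and *Maged2* take in run and library type. They are larger in size than the changes of the unadjusted CPM means. Of 12 fetal growth regulators tested 1 was higher and none lower, beside 3.32 and 1.86% of all genes.

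**Figure D5:**
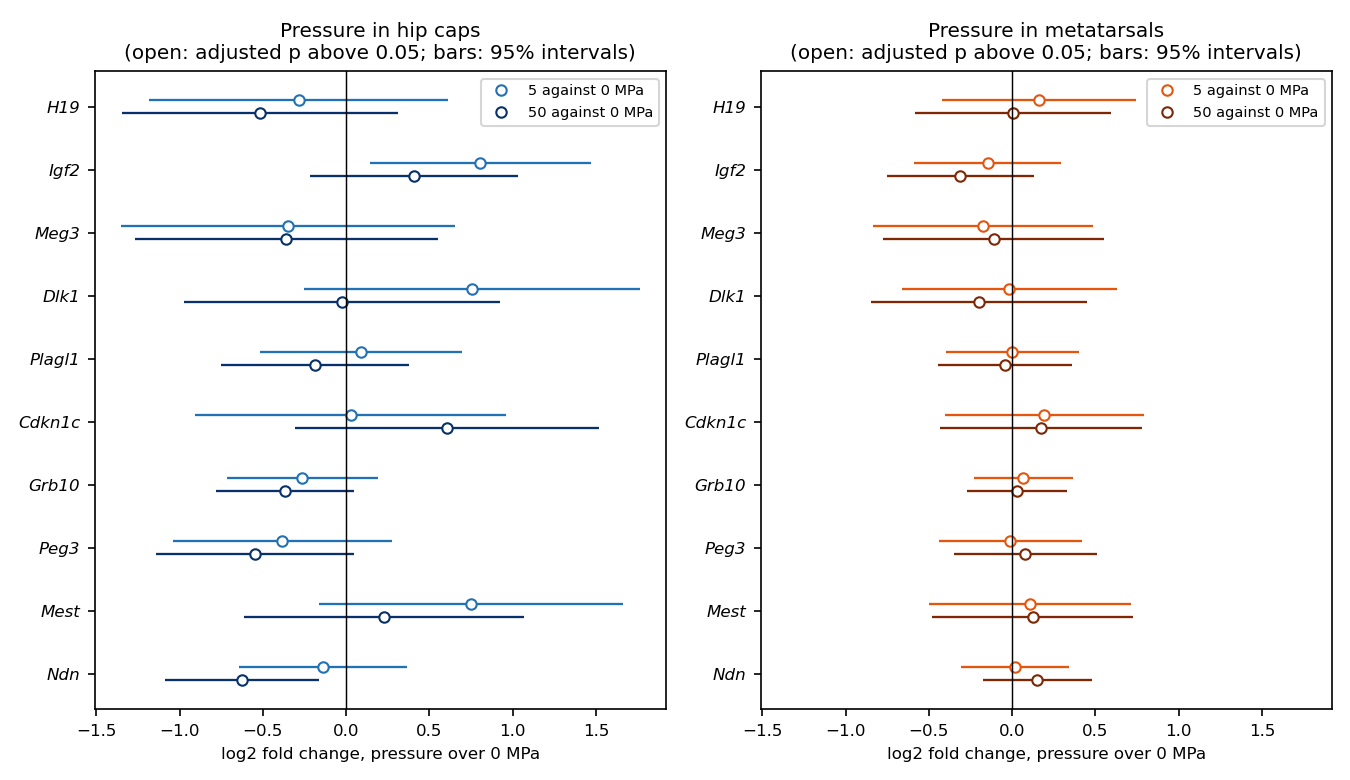
Log2 fold change of each of the 10 genes at 5 and 50 MPa over 0 MPa, in hip caps (left) and metatarsals (right), with 95% intervals from the fit. All points are open, since none passed, and intervals are wider in hip caps than in metatarsals for each gene and pressure.

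Whether the response to pressure differed between the tissues was tested by the interaction of tissue and pressure. None of the 10 genes passed at 5 MPa (background 0.0188%) or at 50 MPa (0.132%). At an unadjusted p-value under 0.05 there were 1 and 2 members, beside 11.2 and 18.3% of all genes. The interaction was largest for *Igf2* at 5 MPa (0.95, SE 0.34, unadjusted p = 0.011, adjusted p = 0.34) and, at 50 MPa, for *Ndn* (-0.78, SE 0.25, adjusted p = 0.11) and *Igf2* (0.72, SE 0.33, adjusted p = 0.25). *Ndn* at 50 MPa passed with DESeq2 in place of edgeR (-0.76, adjusted p = 0.043) and without H504 (-0.92, adjusted p = 0.046).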

How the data were processed

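RNA of 24 explant samples was sequenced after depletion of ribosomal RNA. The authors reported RNA integrity values below the desired minimum and proposed that the RNA was partly degraded. Its effect on the ratios and the levels per kilobase was not tested. The authors trimmed reads with Trim Galore 0.6.5 (quality 20, minimum length 20), quantified transcripts with kallisto and summed them to genes with tximport, and deposited estimated counts, not normalized, for 52178 genes, of which 48845 were named from GENCODE. The labels name GRCm39, whereas reference names, exon lengths and sequences are of GRCm38, so the coordinates printed with microRNAs and promoters are those of GRCm38.p6 and none are given for genes.

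Counts were rounded and tested with edgeR 4.0.16 (quasi-likelihood, limma 3.58.1, R 4.3.3) in 22 libraries, leaving out HC4 and H502 as the authors did, with group, sequencing run and library type as terms, TMM scaling, edgeR's filter on low counts (21283 genes kept), Benjamini-Hochberg adjustment over all genes and a two-sided threshold of 0.05. SE is the fold change over the root of F, and intervals are 95%. CPM are TMM-scaled and not adjusted for run or library type. Library type is from the labels, which disagree in places with the methods; run was read from the colour strip of the study's clustering plot, and its division of libraries does not match the one by kit in the methods. The p-values measure the spread between these samples. No pair of libraries within a group was a repeat (smallest chi-square per gene 9.16); pairs across groups were not compared.

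The 10 genes and all lists were chosen with earlier results of these data known. All 10 are described. Of other lists up to 4 genes in each direction with the largest changes and at least 1 CPM in a group are named, besides relatives, neighbours and partners of the 10. DESeq2 1.42.0, other scalings, filters, batch terms and library choices, leaving out each library and a replicate block were tried. The fits were tested on simulated data. Depth limits the low values: *Dlk1* rested on 22 to 112 counts in hip cap controls. Reads of overlapping genes cannot be separated in unstranded libraries.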

Additional observations from a re-analysis of the deposited data

Results flagged for a closer look

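In 40 sets of 4 libraries, 1 for each gene and group of 4 used libraries, a single value lay apart from its group by Dixon's test at the 95% level. It was *Ndn* in M504, a metatarsal at 50 MPa, at 43.1 CPM against 29.1 to 31.4 CPM in the other 3. Chance alone gives about 1 in 20.

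The libraries left out of the comparisons held 6 values above all 3 hip cap controls used. H502 was at 635.0 CPM for *H19*, 43.5 CPM for *Cdkn1c*, 468 CPM for *Igf2*, 82.5 CPM for *Dlk1* and 82.4 CPM for *Mest*, and HC4 was at 28.1 CPM for *Mest*. Another 11 of their values lay below all 3 controls, 7 in HC4 (*H19*, *Meg3*, *Cdkn1c*, *Grb10*, *Plagl1*, *Peg3* and *Ndn*) and 4 in H502 (*Grb10*, *Plagl1*, *Peg3* and *Ndn*). These libraries also stood apart in chondrocyte markers, with sums of 12220 CPM in H502 and 9122 CPM in HC4 against at least 22400 CPM in the hip caps used. H502 held 114 CPM of skeletal muscle markers and HC4 4514 CPM of osteoclast markers, and the part of these in the values was not tested.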

How the results depend on the processing

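Over the alternatives run, 7 of 1980 member fold changes with 1 library left out and 2 of 1150 under other settings lost their call, 12 and 15 gained one, and 1 reversed: *Ndn* at 5 MPa between the tissues was -0.53 (adjusted p = 0.047) with library sizes alone, which put the median of all genes at -0.70. In hip caps 1 member passed at 5 MPa without batch terms and 1 with library type alone (*Igf2* in both), and 1 at 50 MPa with at least 10 counts required in every library (*Ndn*). For the interaction at 50 MPa 1 passed with DESeq2. The count of relatives at 5 MPa was 8 with library sizes alone and 3 with all 24 libraries, where that of other imprinted genes was 19. Fetal growth regulators came to 4 at 0 MPa and 3 at 5 MPa with at least 10 counts in every library, a filter that tests fewer genes. In run 1 alone at 0 MPa the counts were 6 other imprinted genes, 3 relatives, 5 fetal growth regulators and 1 signalling partner, with a single metatarsal library, and otherwise the cause was not tested.

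Leaving out each library gave 5 to 7, 7 to 8 and 5 to 9 members between the tissues at 0, 5 and 50 MPa, 0 to 1 in hip caps at 50 MPa and for the interaction at 50 MPa, and 0 in the other pressure comparisons and the interaction at 5 MPa. It gave 9 to 21 and 24 to 32 other imprinted genes, 3 to 5 and 4 to 6 relatives, 7 to 10 and 8 to 9 fetal growth regulators, and 3 to 8 and 8 to 10 signalling partners at 0 and 5 MPa. The lowest counts of other imprinted genes and partners came without MC1, and those of relatives at 0 MPa without HC3, MC1 or M504.

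The replicate block left 7, 8 and 7 members between the tissues and 0 in every pressure comparison. Same-numbered libraries did not deviate together (correlations of -0.288 to 0.171, median 0.018, 50 pairs). These pairs include those of a hip cap with a metatarsal, and each group holds few libraries. The values therefore cannot exclude a pairing within a tissue, and the main fit used none.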
